A study of Mus musculus with 6 samples.

Results

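The genes described here encode 10 ion channels and channel partners: *Piezo1*, *Piezo2*, *Trpv4*, *Pkd1*, *Pkd2*, *Stim1*, *Orai1*, *P2rx4*, *Kcnj2* and *Kcnn4*. These bring calcium into cells, respond to mechanical force, or set the membrane voltage that drives calcium in. They were taken by name, through the Ensembl identifiers of the deposited table, and all 10 were found among its 24080 genes. RNA sequencing was compared between mouse endothelial cells that lack vascular endothelial cadherin (VEC, the adhesion protein of endothelial adherens junctions, encoded by *Cdh5*) and the same line after VEC was put back. There were 3 libraries labelled VEC-null and 3 labelled VEC-positive. Both groups came from endothelial cells obtained from murine embryonic stem cells that carry a null mutation in both copies of the VEC gene, and the VEC-positive cells additionally received wild-type VEC from a retrovirus. All cells were grown at the same temperature and CO2 level. The libraries of a group were described as biological replicates, but the comparison is of 1 line with its own derivative, so p-values measure the spread between libraries of these lines.

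Endothelial cells sense blood flow and stretch partly through channels that open when the membrane is pulled. Calcium that enters through them, or that is released from the endoplasmic reticulum and then replaced through store-operated entry, acts on calmodulin, on calcineurin and on nitric oxide production, while potassium channels set the membrane voltage that drives calcium in. ATP released by mechanically stimulated cells acts on purinergic receptors and links force to the same calcium signals.

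The libraries held 6036155 to 14136376 recovered reads, with a median of 11128657. *Cdh5* ran against the labels, with normalized counts (reads scaled between libraries by the authors) of 1334, 1439 and 1689 in VEC-null-labelled libraries and 794, 739 and 749.7 in VEC-positive-labelled ones (log2 fold change -0.96, SE 0.098, adjusted p = 1.82e-04, limma, n = 3 per group). The deposited values do not separate reads of the transferred VEC from those of the mutated gene, so every direction below is that of the labels. By contrast, *Cldn5*, a tight junction gene known to be raised by VEC, had 9.18, 5.51 and 4.43 normalized counts in VEC-null-labelled libraries and 429, 512 and 434 in VEC-positive-labelled ones, the direction of the labels. The same held for *Vwf*, the gene of von Willebrand factor, with 407, 385 and 409.6 against 1813, 1657 and 1769.7. The authors picked *Vwf* from genes that VEC raised in their own RNA sequencing, so it is no separate check of the labels. Mitochondrial genes took 9.62% to 14.9% of reads in VEC-null-labelled libraries and 17.97% to 24.18% in VEC-positive-labelled ones. Among libraries, VEC-null replicate 3 stood apart from replicates 1 and 2 (chi-square per gene of 50.5 and 48.6, against 6.57 between the other two). All 12 endothelial markers passed the low-count filter, and their summed normalized count was 47575 to 50253 in the VEC-null-labelled libraries and 68369 to 70407 in the VEC-positive-labelled ones. The same sums were 72.7 to 93.3 and 219 to 228 for mural cell and fibroblast markers (8 of 10 in the table), 129 to 436 and 143 to 199 for blood cell markers (4 of 7), 4.59 to 7.09 and 16.9 to 33.1 for epithelial markers (5 of 5), 3.15 to 9.18 and 0.974 to 12.9 for pluripotent stem cell markers (3 of 5), and 21.4 to 57.5 and 17.5 to 32.3 for sensory neuron markers (5 of 6). Of the mural sum, *Pdgfrb* was the largest part in VEC-positive-labelled libraries (95.6 to 118, against 0 to 1.77). *Pdgfra* (52.5 to 57.5, against 31.5 to 51.4), *Myh11* (18.5 to 23.4, against 0.887 to 18.1) and *Col1a1* (9.74 to 24.2, against 2.66 to 3.15) were also higher without overlap. *Rgs5* and *Acta2*, with lower means, and *Des* and *Dcn*, with higher means, overlapped between groups. Of the epithelial sum, *Krt19* made up most in VEC-positive-labelled libraries (14.5 to 31.2, against 0 in every VEC-null-labelled library). Of the blood sum, *Itgam* made up most (405, 389 and 83.3 against 155, 99.4 and 145), while *Ptprc*, which defines blood cells, had at most 3.23 in any library. The part of these differences in the results below was not tested. In such bulk libraries fewer cells of a type and less RNA per cell cannot be told apart.

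The channel genes moved in both directions. *Piezo2* and, by a smaller amount, *Piezo1* fell in VEC-positive-labelled libraries, *Orai1* and *Pkd2* rose, and *Kcnj2*, *Pkd1*, *P2rx4* and *Stim1* did not pass the test. The remaining 2, *Trpv4* and *Kcnn4*, were left out by a filter on low counts, since the test (limma on the log2 of the normalized count plus 1) took only genes with at least 10 normalized counts in at least 3 libraries. Of the 8 genes tested, 4 passed at an adjusted p under 0.05, against 37.3% of all 14032 genes tested. The 2 genes that rose stand against 20.9% of all tested genes called higher, and the 2 that fell against 16.4% called lower. The values of the 2 groups did not overlap for 6 of the 8, with 4 higher (27.2% of all tested genes were higher without overlap) and 2 lower (22.8%). The median log2 fold change was 0.22 over the 8 genes and -0.012 over all tested genes. When libraries were instead scaled to equal totals, which places the median of all tested genes at -0.320, the same 4 genes still passed with the same direction, *Kcnj2* passed as lower, and the log2 fold changes of *Pkd1* (-0.17), *P2rx4* (-0.02) and *Stim1* (-0.03), all uncalled, turned below 0.

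**Figure D1:**
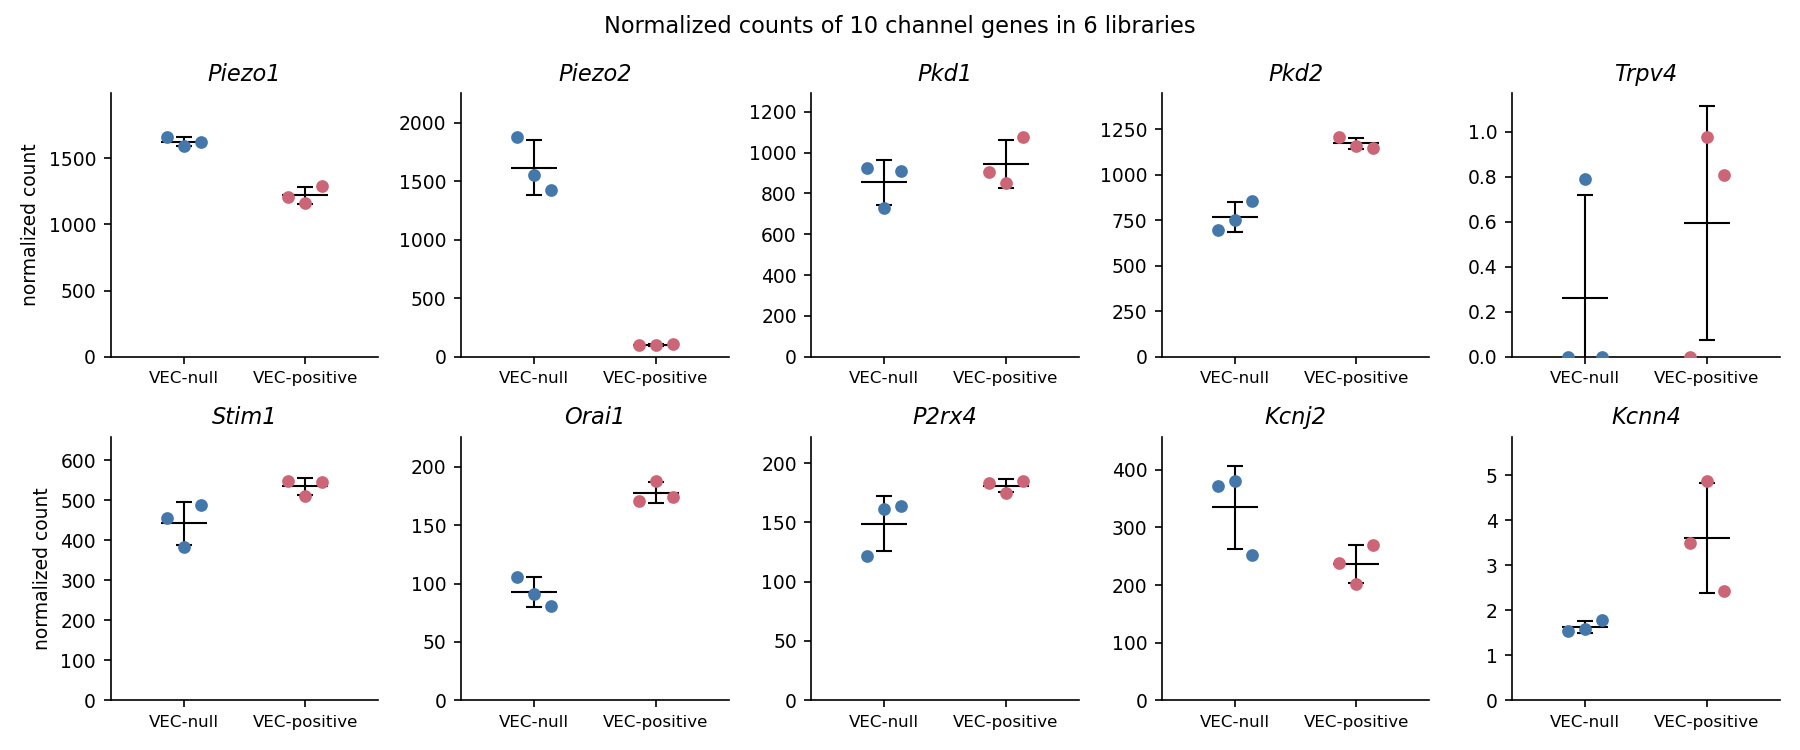
Normalized counts (vertical axes, each from 0) of the 10 channel genes in the 3 libraries labelled VEC-null (blue) and the 3 labelled VEC-positive (red); points are libraries, horizontal bars are group means and error bars are SD. *Piezo2* lay between 1425 and 1876 in the VEC-null-labelled libraries and between 96.4 and 109.7 in the VEC-positive-labelled ones, while *Trpv4* and *Kcnn4* stayed under 5 everywhere.

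*Piezo2* encodes a stretch-gated cation channel best known for touch and body-position sensing in sensory neurons. Its normalized counts were 1876, 1551 and 1425 in VEC-null-labelled libraries and 100.3, 96.4 and 109.7 in VEC-positive-labelled ones. Every VEC-null-labelled library was above every VEC-positive-labelled one, by a wide margin. The mean fell from 1617 ± 233 to 102 ± 6.85 (SD, n = 3 each), 15.8-fold lower (log2 fold change -3.96, SE 0.12, 95% interval -4.24 to -3.69, adjusted p = 5.34e-07, limma). Of the 14032 genes tested, 52 (0.371%) had a lower log2 fold change, and 6.99% were called and at least 2-fold lower. The fall rested on 4803 reads in the VEC-null-labelled group against 321 in the other. It passed under all 17 alternative fits, with log2 fold changes from -4.27 to -3.85. The gene (ENSMUSG00000041482) spans positions 63010213 to 63387183 on the minus strand of chromosome 18 in mm10. Profiles were compared over 10297 genes, *Piezo2* itself included, by root mean square difference of centred log2 values over the 6 libraries. The nearest to *Piezo2* were *Igfbp5*, which encodes an insulin-like growth factor binding protein (0.0975), *Lcp1*, an actin-bundling protein of leukocytes (0.221), and *Itga2*, a collagen-binding integrin subunit (0.248).

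*Piezo1*, the stretch-gated channel through which endothelial cells sense shear stress, fell much less. It had 1659, 1591 and 1625 normalized counts in VEC-null-labelled libraries and 1209.5, 1160.2 and 1291 in VEC-positive-labelled ones. The groups did not overlap, and each was tight. The mean went from 1625 ± 33.9 to 1220.3 ± 66.1 (log2 fold change -0.41, SE 0.071, 95% interval -0.58 to -0.25, adjusted p = 0.00259, limma), and the gene passed under all 17 alternatives, from -0.73 to -0.38. *Piezo1* (ENSMUSG00000014444, chromosome 8, 122481698 to 122551329, minus strand) shares 2441 exon bases, 24.6% of its exon length, with *Ctu2* on the opposite strand. The kit kept strand, but whether reads were counted by strand is, for these files, not given in the sources used here. *Ctu2* itself had 553 reads in the VEC-null-labelled group and 470 in the other.

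The unequal falls changed the balance within the Piezo family. Per length of exon, *Piezo2* made up 39.6%, 36.1% and 33.7% of the Piezo level in VEC-null-labelled libraries and 4.58%, 4.59% and 4.69% in VEC-positive-labelled ones. The log2 ratio of *Piezo1* to *Piezo2* normalized counts went from 0.02 ± 0.18 to 3.57 ± 0.019 (difference 3.55). With 3 libraries against 3 the exact two-sided permutation test cannot go below p = 0.1, which it reached here and for each of the 5 gene pairs examined (adjusted p = 0.10 over the 5), so no pair could pass 0.05.

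*Pkd1* and *Pkd2* encode polycystin-1, a large receptor-like membrane protein, and polycystin-2, a cation channel that pairs with it in the primary cilium. *Pkd2* had 696, 753 and 858 normalized counts in VEC-null-labelled libraries and 1206, 1161 and 1149.9 in VEC-positive-labelled ones. All VEC-positive-labelled libraries were higher than all VEC-null-labelled ones. The mean rose from 769 ± 82.2 to 1172 ± 29.7 (log2 fold change 0.61, SE 0.091, 95% interval 0.40 to 0.82, adjusted p = 0.00125, limma), and passed under all 17 alternatives at 0.30 to 0.69. *Pkd1* had 924, 728 and 911 against 907, 851 and 1075, and the groups overlapped. Its log2 fold change was 0.15 (SE 0.12, 95% interval -0.14 to 0.43, adjusted p = 0.394, limma), so a change as large as that of *Pkd2* lay outside its interval. The *Pkd1* to *Pkd2* log2 ratio went from 0.15 ± 0.23 to -0.32 ± 0.19, a difference of -0.47 (n = 3 each). Of *Pkd1* exon bases, 693 (4.0%) lie opposite *Tsc2*. *Pkd2* (ENSMUSG00000034462) is at 104459450 to 104505819 on chromosome 5, plus strand, and *Pkd1* (ENSMUSG00000032855) at 24549834 to 24596508 on chromosome 17, plus strand.

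STIM proteins sense the loss of calcium from the endoplasmic reticulum and open Orai channels in the plasma membrane. *Orai1*, which encodes the pore of store-operated entry, had 106, 91.4 and 80.7 normalized counts in VEC-null-labelled libraries and 171, 188 and 174 in VEC-positive-labelled ones. The groups were well apart. The mean rose 1.92-fold, from 92.5 ± 12.5 to 178 ± 8.85 (log2 fold change 0.94, SE 0.14, 95% interval 0.62 to 1.27, adjusted p = 0.00129, limma), and the rise passed under all 17 alternatives at 0.63 to 1.04. Nearest to *Orai1* in profile over the 6 libraries were *Pxk* (0.0413), *Olfm2* (0.0687) and *Zfp335os* (0.0693), in root mean square log2 difference. *Stim1* had 456, 384 and 489 against 549, 510.4 and 546 normalized counts. These did not overlap, yet the difference did not pass (log2 fold change 0.28, SE 0.11, 95% interval 0.04 to 0.52, adjusted p = 0.0718, limma). *Stim1* passed only without VEC-null replicate 3 (log2 fold change 0.35, adjusted p = 0.0121, limma), among the 17 alternatives. *Orai1* (ENSMUSG00000049686) is at 123015074 to 123030456 on chromosome 5, plus strand, and *Stim1* (ENSMUSG00000030987) at 102267806 to 102437319 on chromosome 7, plus strand.

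The relatives of these genes did not share their calls, though every log2 fold change was above 0. *Stim2*, the sensor tuned to small losses of store calcium, had 1337, 1332 and 1442 normalized counts in VEC-null-labelled libraries and 3274, 3311 and 3191 in VEC-positive-labelled ones. It rose 2.38-fold (log2 fold change 1.25, SE 0.068, adjusted p = 7.72e-06, limma), and no library of either group came near the other group. Per length, *Stim1* went from 13.8% ± 1.11 to 7.52% ± 0.383 of the *Stim* level, and the *Stim1* to *Stim2* log2 ratio went from -1.63 ± 0.14 to -2.60 ± 0.080. *Orai2* and *Orai3* did not pass, with log2 fold changes of 0.11 (SE 0.14) and 0.24 (SE 0.14). *Orai1* made up 35.7%, 27.6% and 24.5% of the *Orai* level per length in VEC-null-labelled libraries and 39.3%, 43.4% and 39.5% in the others, without overlap, and the *Orai1* to *Orai3* log2 ratio went from -0.74 ± 0.41 to -0.04 ± 0.13.

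**Figure D2:**
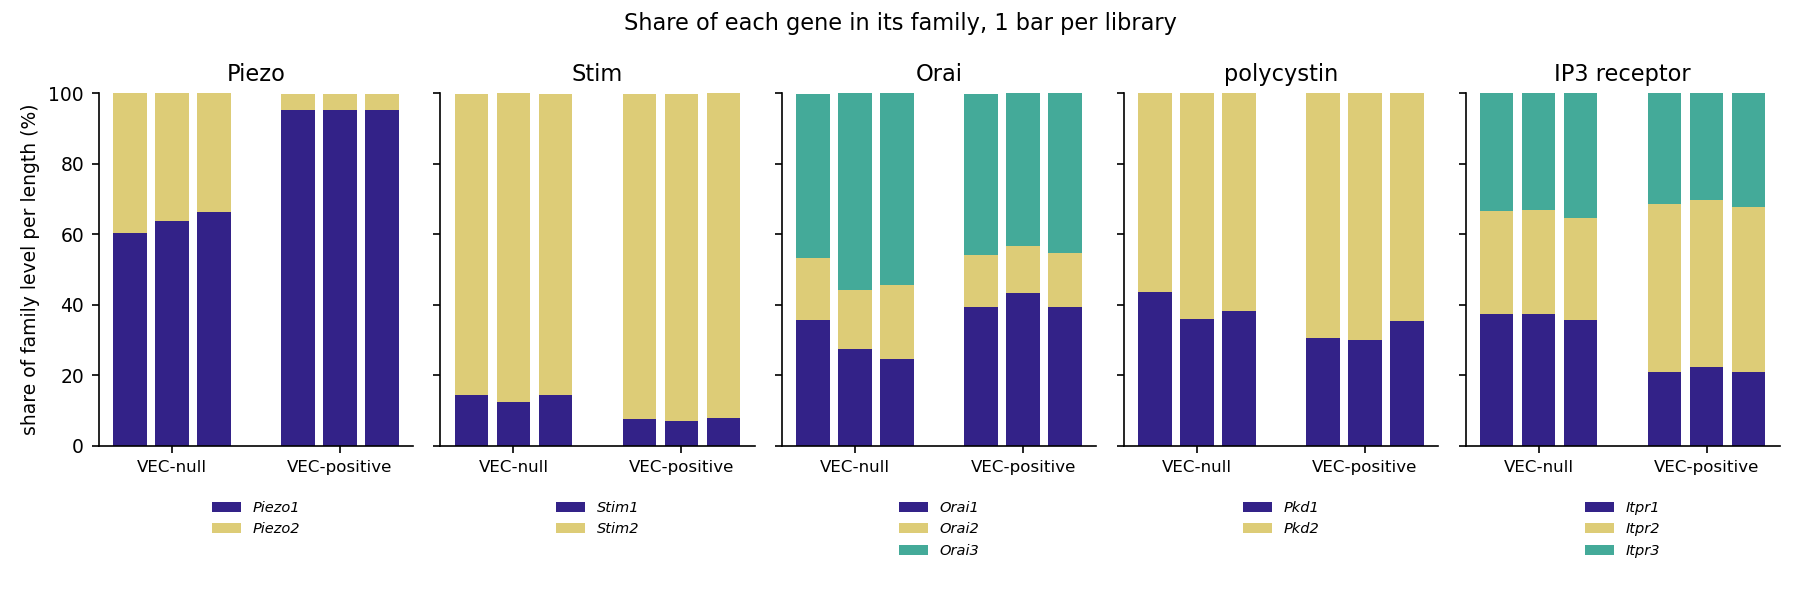
Share of each gene in the level of its family (percent, recovered reads per kilobase of exon; 1 bar per library, 3 per group) for the Piezo, Stim, Orai, polycystin and IP3 receptor genes. The *Piezo2* share was 36.4% in the VEC-null-labelled libraries and 4.62% in the VEC-positive-labelled ones on average, and *Itpr2* went from 29.2% to 47.4%.

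The start regions of *Piezo1*, *Pkd2* and *Orai1*, called members for which a window was given, are shown because they let the direction of change be set beside the sequence (RefSeq, GRCm38.p6, 250 bases before to 50 after the start, on the gene's strand; 9 of the 10 genes were matched). Capitals mark CACCC on either strand, the core that Krüppel-like factors bind, which 57.5% of 32851 such windows hold; the reverse-strand match reads GGGTG.
Piezo1, chr8:122551280-122551579, minus strand: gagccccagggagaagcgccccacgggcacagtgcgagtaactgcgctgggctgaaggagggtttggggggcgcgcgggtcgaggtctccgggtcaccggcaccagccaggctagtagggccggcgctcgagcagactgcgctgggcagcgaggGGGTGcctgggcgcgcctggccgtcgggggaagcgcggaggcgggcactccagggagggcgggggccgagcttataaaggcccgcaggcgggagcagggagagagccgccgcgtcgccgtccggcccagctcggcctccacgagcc
Pkd2, chr5:104459207-104459506, plus strand: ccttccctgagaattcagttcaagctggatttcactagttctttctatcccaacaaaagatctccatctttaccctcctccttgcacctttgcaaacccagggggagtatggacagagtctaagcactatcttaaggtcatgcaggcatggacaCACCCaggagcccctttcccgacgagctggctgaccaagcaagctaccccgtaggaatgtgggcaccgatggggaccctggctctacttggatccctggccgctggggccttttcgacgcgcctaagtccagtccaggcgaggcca
Orai1, chr5:123014824-123015123, plus strand: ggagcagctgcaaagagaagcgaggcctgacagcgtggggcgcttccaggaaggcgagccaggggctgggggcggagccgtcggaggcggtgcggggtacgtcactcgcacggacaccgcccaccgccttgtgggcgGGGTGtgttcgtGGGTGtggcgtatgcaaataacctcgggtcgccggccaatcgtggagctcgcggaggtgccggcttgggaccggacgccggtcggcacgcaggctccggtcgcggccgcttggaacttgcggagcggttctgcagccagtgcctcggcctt
*Orai1*, which rose, and *Piezo1*, which fell, were alike in having many CpG dinucleotides (36 and 34) and a high GC content (70.3% and 75.0%), while *Pkd2*, which rose, had 9 CpG and 55.3% GC. Over all windows the median was 7 CpG (quartiles 3 and 20) and 52.7% GC. None of the 3 windows held the FOXO core GTAAACA (in 3.6% of all windows), the TCF/LEF letters TCAAAG (16.0%) or the NFAT core GGAAAA (23.4%), each searched on both strands, which says only that these letters are not in these windows.

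*Trpv4*, which encodes a cation channel opened by swelling, warmth and lipid messengers, was at the edge of detection. Its normalized counts were 0, 0.788 and 0 in VEC-null-labelled libraries and 0, 0.974 and 0.807 in VEC-positive-labelled ones, or 1 read against 2. Both groups were under the floor of 3 reads that a count of 0 allows over a group, so no fold is given. Such floors, and the counting interval given for *Kcnn4*, cover counting error only.

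*P2rx4* encodes an ATP-gated cation channel that takes part in flow-evoked calcium entry. It had 122, 161 and 164 normalized counts in VEC-null-labelled libraries and 183, 175 and 185 in VEC-positive-labelled ones. The groups did not overlap, but the difference did not pass (log2 fold change 0.29, SE 0.14, 95% interval -0.04 to 0.62, adjusted p = 0.150, limma) under this or any of the 17 alternatives. It lies at 122707544 to 122729738 on chromosome 5, plus strand.

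*Kcnj2* encodes Kir2.1, the inward-rectifier potassium channel that holds endothelial cells near their resting voltage, and *Kcnn4* encodes a calcium-activated potassium channel of intermediate conductance. *Kcnj2* had 372, 381 and 252 normalized counts in VEC-null-labelled libraries and 238, 202 and 269 in VEC-positive-labelled ones. VEC-null replicate 3 lay among the VEC-positive-labelled libraries. The log2 fold change was -0.49 (SE 0.18, 95% interval -0.91 to -0.07, adjusted p = 0.0685, limma), and the gene passed as lower in 4 of the 17 alternatives: without VEC-null replicate 3 (-0.68, adjusted p = 0.00181), with equal totals (-0.80, adjusted p = 0.0109), with equal totals without mitochondrial genes (-0.63, adjusted p = 0.0246) and with DESeq2 (-0.52, adjusted p = 0.0433). It lies at 111066164 to 111076821 on chromosome 11, plus strand. *Kcnn4* had 1.53, 1.58 and 1.77 normalized counts against 3.50, 4.87 and 2.42. That is 5 reads against 11, a ratio of 2.15 with a 95% exact counting interval of 0.688 to 7.89, so a difference was not detectable at this depth. The log2 ratio of *Kcnj2* to *Kcnn4* differed by -1.26 between the groups, and rests on those few *Kcnn4* reads.

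**Figure D3:**
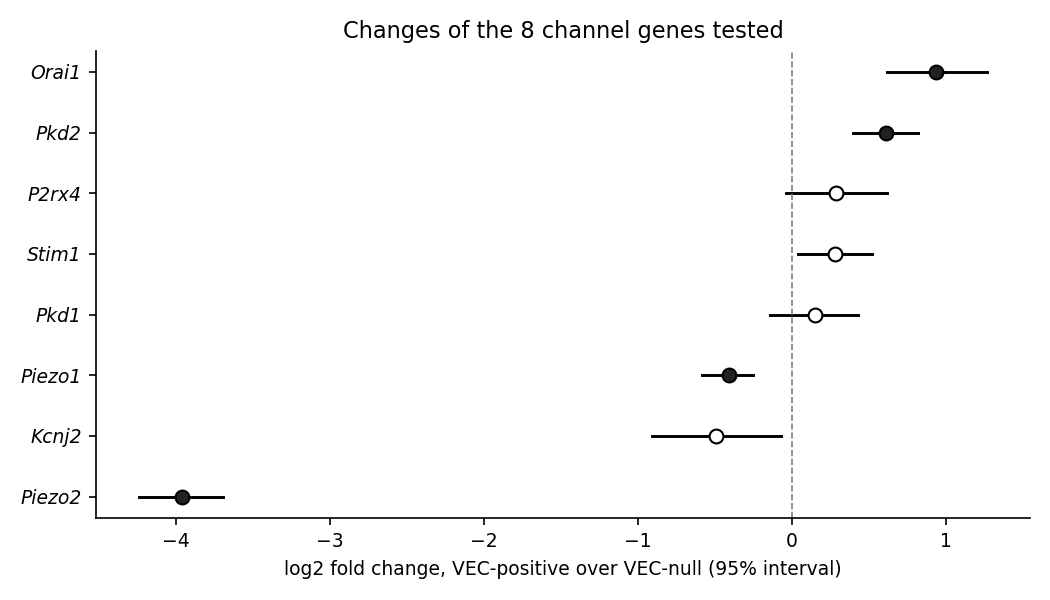
Log2 fold change, VEC-positive-labelled over VEC-null-labelled libraries (horizontal axis, log2 scale), of the 8 channel genes tested, with 95% intervals from limma (n = 3 per group). Filled points passed at an adjusted p under 0.05; *Piezo2* (-3.96) lies far below the others, which range from -0.49 to 0.94.

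Levels of different genes were compared as recovered reads per kilobase of exon, scaled to the library's total reads (RPKM), within a group. In VEC-null-labelled libraries, *Piezo1* was highest at 17.6 ± 0.376 (SD, n = 3), followed by *Piezo2* (10.2 ± 1.52), *Pkd2* (8.15 ± 0.794), *Kcnj2* (6.65 ± 1.49), *Pkd1* (5.29 ± 0.649), *Stim1* (4.60 ± 0.516), *Orai1* (4.35 ± 0.618) and *P2rx4* (2.29 ± 0.351), with *Kcnn4* at 0.0343 and *Trpv4* at 0.00701. *Piezo1* stood above *Piezo2* and *Orai1* above *P2rx4* in every library, whereas each pair of neighbours from *Piezo2* to *Orai1* overlapped. In VEC-positive-labelled libraries, *Piezo1* (10.7 ± 0.813) and *Pkd2* (10.6, 9.58 and 9.91) overlapped at the top, *Orai1* was in the third place (6.73 ± 0.121) and clear of its neighbours, and *Piezo2* was at 0.518 ± 0.0447, below *P2rx4* (2.24 ± 0.129) and above *Kcnn4* (0.0608). *Pkd1*, *Stim1* and *Kcnj2* lay between, at 4.72 ± 0.657, 4.49 ± 0.320 and 3.78 ± 0.619, each overlapping the next. The order depends on the length used: with the longest transcript in place of all exons, *Pkd2* (19.5) came above *Piezo1* (12.9) and *Stim1* (10.7) above *Orai1* (8.24) in the VEC-positive-labelled libraries. Shares of a family level, given above by all exons, depend on it too. The *Stim1* level in VEC-null-labelled libraries was 10.9 by longest transcript, against 4.60 by all exons.

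Around these channels, 164 related genes in 8 lists were examined. Of these, 148 were in the table and 102 were tested, of which 31 rose in VEC-positive-labelled libraries, 14 fell and 57 did not pass, with a median log2 fold change of 0.15. Equal totals changed that split to 19 higher and 26 lower, where all 14032 tested genes gave 1564 higher and 4960 lower. The list counts below that come from other settings stand beside all genes of the same setting. Without VEC-null replicate 3, those were 3795 higher and 3148 lower of 13709. Without any other single library, they were 1919 to 2504 higher and 1572 to 1730 lower of 13524 to 13695. The shares called (31 and 14 of 102) stand beside 20.9% and 16.4% over all tested genes.

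Calcium stores and store-operated entry held 17 tested genes, with 7 higher, 3 lower and a median of 0.20. The 7 became 4 without VEC-positive replicate 1, 2 or 3, and 4 with equal totals. Without any of those replicates *Atp2b2* was no longer tested. *Saraf* and *Atp2a2*, named after their values were seen, were tested there but did not pass. *Itpr1*, an IP3-gated release channel of the endoplasmic reticulum, had 1983, 1862 and 2013 normalized counts in VEC-null-labelled libraries and 1105, 1093 and 1116 in the others (log2 fold change -0.82, adjusted p = 6.12e-05, limma). Its relative *Itpr2*, named after its values were seen, went the other way, from 1251 ± 61.6 to 1982 ± 98.1 (log2 fold change 0.66, adjusted p = 2.96e-04, limma), and *Itpr3* did not pass (-0.15, adjusted p = 0.261) except with equal totals (-0.46, adjusted p = 0.00820). *Itpr1* thus went from 36.8% ± 0.927 to 21.4% ± 0.907 of the IP3 receptor level per length, and *Itpr2* from 29.2% ± 0.321 to 47.4% ± 0.565, with no overlap between groups for either. The plasma membrane calcium pump gene *Atp2b4* rose (0.70, adjusted p = 3.96e-04) and the sodium-calcium exchanger gene *Slc8a1* fell (-0.74, adjusted p = 0.00858). *Asph* did not pass (0.14, adjusted p = 0.172).

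Purinergic signalling held large changes in both directions. *P2ry2*, a G protein-coupled receptor for ATP and UTP, had 68.9, 53.6 and 70.0 normalized counts in VEC-null-labelled libraries and 581, 687 and 709 in VEC-positive-labelled ones. It rose 10.3-fold (log2 fold change 3.35, SE 0.14, adjusted p = 2.17e-06, limma). *Entpd1*, which encodes the ectoenzyme CD39 that breaks down extracellular ATP and ADP, had 1864, 2062 and 2541 against 199, 206 and 185, 11.0-fold lower (log2 fold change -3.44, SE 0.12, adjusted p = 8.82e-07, limma). Neither gene had overlapping groups. The UDP receptor gene *P2ry6* rose (2.72, adjusted p = 5.41e-05) and the adenosine receptor gene *Adora2a* fell (-2.41, adjusted p = 1.56e-05), while *P2ry1* (-0.06, adjusted p = 0.909) and *P2rx7* (-0.58, adjusted p = 0.233) did not pass. Of the 8 tested genes of the list, 2 were higher and 3 lower, with a median of -0.52.

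Calmodulin, calcineurin and NFAT, which act on the calcium that these channels admit, held 24 tested genes with 12 higher, 2 lower and a median of 0.33. *Nfatc1*, a calcineurin-dependent transcription factor, had 551, 499 and 569 normalized counts in VEC-null-labelled libraries and 944, 970.2 and 1043 in the others (log2 fold change 0.87, adjusted p = 1.35e-04, limma). *Rcan1*, which encodes a feedback inhibitor of calcineurin, had 424, 489 and 462 against 856, 832 and 809 (0.86, adjusted p = 1.30e-04, limma). The kinase genes *Camk4* (1.66, adjusted p = 4.98e-04) and *Camk1* (1.05, adjusted p = 9.08e-05) also rose. The calmodulin gene *Calm2* (-0.09, adjusted p = 0.574) did not pass, and its count is uncertain because near-identical copies lie elsewhere in the genome. It passed as lower with equal totals (-0.40, adjusted p = 0.0208), where the list had 7 higher and 6 lower.

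In the list of polycystin relatives and the cilium, 6 of 16 tested genes were higher and 1 was lower, with a median of 0.27. The ciliary genes *Arl13b* (0.77, adjusted p = 0.00155), *Ift20* (0.68, adjusted p = 0.00285) and *Bbs1* (0.63, adjusted p = 0.0433) rose, as did *Dnajb11* (0.62, adjusted p = 0.00142), whose product is a chaperone of the endoplasmic reticulum. The *Bbs1* call held in 6 of the 17 alternatives and was lost without any single library other than VEC-null replicate 3 (0.54 to 0.70, adjusted p from 0.0785 to 0.145, limma). *Kif3b* (0.13, adjusted p = 0.408) and *Cep290* (0.22, adjusted p = 0.128) did not pass, though *Cep290* did without VEC-null replicate 3 (0.28, adjusted p = 0.0273). Without VEC-null replicate 3 the number called higher was 10, and with equal totals it was 3.

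Other mechanosensitive channels and Piezo partners had 3 higher, 1 lower and 13 not passing among 17 tested (median 0.10). *Mdfic*, whose product binds Piezo channels, rose from 872 ± 29.3 to 1602 ± 64.8 normalized counts (log2 fold change 0.88, adjusted p = 5.55e-05, limma). *Lrrc8a*, the required subunit of volume-regulated anion channels, rose (0.78, adjusted p = 0.00810), and so did *Kcnk2*, a stretch-sensitive potassium channel gene (0.52, adjusted p = 0.0275). *Tmem120a* fell (-0.63, adjusted p = 0.0182), a call that was lost without VEC-positive replicate 1 (-0.52, adjusted p = 0.0708). The *Kcnk2* call held in 8 of the 17 alternatives and was lost without any single library other than VEC-null replicate 3 (0.48 to 0.55, adjusted p from 0.0635 to 0.0928, limma). *Tmem63a* (0.34, adjusted p = 0.0704) and *Trpm7* (0.15, adjusted p = 0.256) did not pass, but did without VEC-null replicate 1 (*Tmem63a*, adjusted p = 0.0352) or 3 (*Trpm7*, adjusted p = 0.00966).

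The remaining 3 lists were small. Among other potassium channels, 4 genes were tested and 2 were lower, both under the abundance set for naming and given here after their values were seen: *Abcc9*, a regulatory subunit of ATP-sensitive potassium channels (79.6 ± 15.2 to 4.98 ± 4.08, log2 fold change -3.94, adjusted p = 3.66e-04, limma), and *Kcnn1* (22.4 ± 8.85 to 5.89 ± 1.88, -1.73, adjusted p = 0.0119). Neither was tested when a VEC-null library was left out, since fewer than 3 libraries then reached 10 normalized counts. *Kcnj15* (-0.26, adjusted p = 0.628) and *Kcnj16* (-0.05, adjusted p = 0.918) did not pass, and the median was -0.99. For mitochondrial calcium uptake, 2 of 8 tested genes fell, among them *Mcu*, the pore of the uniporter (-0.52, adjusted p = 0.0271). The *Mcu* call was lost without VEC-null replicate 1 or 2 or VEC-positive replicate 1 (-0.49 to -0.38, adjusted p from 0.0711 to 0.0881). Without any one of VEC-null replicates 1 and 2 and VEC-positive replicates 1, 2 and 3, the list had 1 call. In the same list, *Micu2* (-0.01, adjusted p = 0.907) and *Vdac1* (0.06, adjusted p = 0.648) did not pass, except that *Micu2* was lower with equal totals (-0.32, adjusted p = 0.00575), and the list's median was 0.03. Of 8 tested voltage-gated calcium channel genes, 1 passed, *Cacna1a* (1.94, adjusted p = 4.98e-04), while *Cacna2d1* (-0.29, adjusted p = 0.681) and *Cacnb3* (-0.07, adjusted p = 0.776) did not, with a median of -0.21. Without VEC-null replicate 3, 3 genes of that list were called lower, *Cacna2d1* among them.

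**Figure D4:**
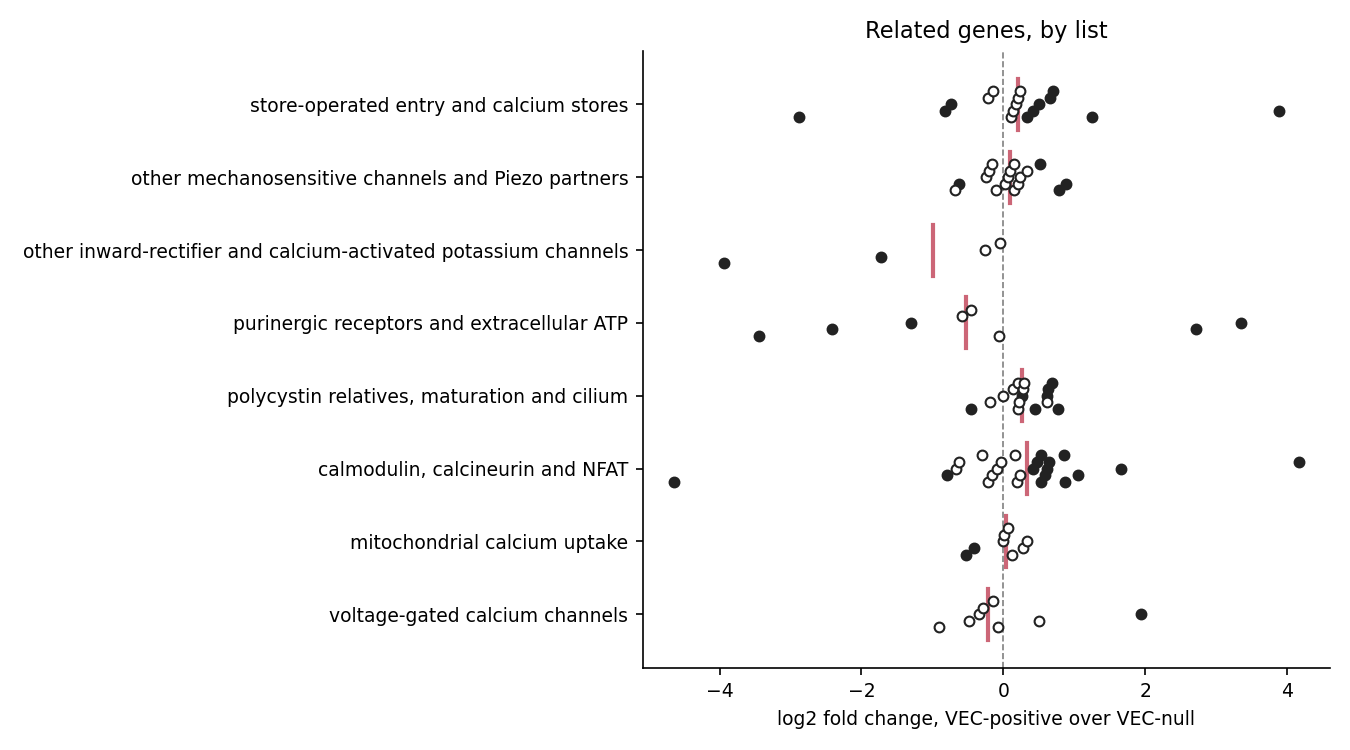
Log2 fold change, VEC-positive-labelled over VEC-null-labelled libraries (horizontal axis, log2 scale), of the 102 related genes tested, by list; 1 point per gene, filled where the adjusted p was under 0.05, with the list's median as a red line. The medians run from -0.99 (other potassium channels, 4 genes) to 0.33 (calmodulin, calcineurin and NFAT, 24 genes).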

How the data were processed

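RNA from 3 VEC-null and 3 VEC-positive libraries was made into sequencing libraries with a kit that keeps strand. Tools listed by the submitters' processing notes, per the labels, were TopHat2 2.1.1, Trim Galore and DESeq2 1.14, with mm10 as build (counting program and strand setting not given in the sources used here). As deposited by the authors, the data were 1 table of normalized gene counts (a signal unit: reads divided by a size factor per library). All values (100.0%) were within 0.01 of a whole multiple of 1 read, so whole reads were recovered; depth was 6036155 to 14136376 reads per library. Precision is therefore set by counting for low genes and by 3 libraries per group for the others. Symbols and exon lengths came from GENCODE M21, which matched 23908 of 24080 identifiers.

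The main test was limma 3.58.1 (R 4.3.3) with a mean-variance trend on log2(normalized count + 1), over the 14032 genes with at least 10 in at least 3 libraries (10048 fell below), two-sided, with Benjamini-Hochberg adjustment and a threshold of 0.05. Fold changes on this scale understate those of low genes. The fit was tried on simulated counts with the same added spread for every gene and no outlying library. That setting is simpler than these data, where VEC-null replicate 3 stood apart. Ratios of gene pairs were tested by exact permutation (scipy 1.17.1). There were 17 alternatives: other pseudocounts (0.5 and 5), no filter or a minimum of 50, equal totals with and without mitochondrial genes, TMM, no trend, a replicate block, each library left out, and tests of the recovered reads with DESeq2 1.42.0 and edgeR 4.0.16 (by which edgeR called 5325 genes and DESeq2 4869, against 5231 in the main test). RPKM used exon unions or, as a further setting, the longest transcript.

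The 10 channel genes, the related lists and the markers were chosen with earlier results of these data known. From each related list, up to 4 called genes with the largest change and a mean of at least 50, and up to 2 uncalled genes with the largest mean, are named. Some genes that this rule draws are not reported here. For *Piezo2* and *Orai1*, the 3 nearest profiles are named.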

Additional observations from a re-analysis of the deposited data

How the results depend on the processing

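The calls of *Piezo1*, *Piezo2*, *Pkd2* and *Orai1* kept their direction and passed under all 17 alternatives. Among related genes, the 31 called higher became 19 with equal totals, and the 14 called lower became 26. Leaving out 1 library gave 22 to 37 higher and 8 to 13 lower, with 8 seen without VEC-null replicate 1 and also without VEC-null replicate 2. The filter was applied again to the libraries that remained. Genes that reached 10 normalized counts only in VEC-null-labelled libraries, among them *Abcc9*, *Kcnn1*, *Atp2a3* and *Nfatc4*, were untested when such a library was left out. Their loss from the count called lower is therefore not a failed test. The replicate block also ended the calls of *Kcnk2*, *Bbs1* and *Mcu* (adjusted p from 0.0611 to 0.103). For levels per length, 3 of 10 genes kept their place in the VEC-positive order when the longest transcript was used. Over all genes, equal totals gave 1564 higher and 4960 lower, against 2927 and 2304. With the replicate block, 2 of the 10 channel genes were called higher and 2 lower, as without it, and related genes gave 25 higher and 11 lower (all genes 2400 and 1744). Same-numbered libraries showed no sign of pairing, with correlations of their deviations of 0.076, -0.333 and -0.295. Those of different numbers ran from -0.225 to 0.39. Deviations within groups of 3 libraries are tied to each other, so these values cannot settle whether libraries were paired. Leaving out VEC-null replicate 3 gave 3795 higher and 3148 lower over all genes. When 1 library was left out, the spread was pooled over the groups. Among the called genes named here none turned direction, but *Prkcsh*, a called gene of the polycystin list not otherwise named (0.26, adjusted p = 0.0367, limma), was at -0.06 with equal totals. Depth limits *Trpv4* and *Kcnn4*, with 1 to 11 reads per group, which did not pass when the filter was lifted (adjusted p of 0.689 and 0.330, limma). Apart from the renewed filter, the causes of these shifts were not tested.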

Other observations

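In a few related genes, VEC-null replicate 3 lay well below the other VEC-null-labelled libraries and near or under the range of the VEC-positive-labelled ones. At least 2-fold below both other VEC-null-labelled libraries, each of those at 50 or more normalized counts, were 4 of 79 related genes, against 665 of 10065 genes in all (6.61%). The related genes thus showed this no more often than genes in general. *Cacna1e*, which encodes the pore of R-type voltage-gated calcium channels, had 263, 213 and 45.2 normalized counts in VEC-null-labelled libraries and 91.0, 86.7 and 116 in VEC-positive-labelled ones. *Cacna1b*, the pore of N-type channels, had 68.9, 74.0 and 7.98 against 12.8 to 22.4. *Cacna2d1*, an auxiliary subunit of such channels, had 376, 278 and 85.1 against 185, 122 and 216, and *Rcan2*, a calcineurin regulator, had 421, 347 and 131 against 176, 129.6 and 206. None of the 4 passed with all libraries (adjusted p from 0.228 to 0.681, limma). Without VEC-null replicate 3 all 4 were called lower (log2 fold changes from -1.91 to -0.93, adjusted p from 2.47e-04 to 0.00855, limma). The genes were picked for low values in that library, so these calls follow in part from the choice.

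Among NFAT genes, 2 of low abundance, chosen after their values were seen, moved in opposite directions. *Nfatc2* had 6.12, 2.36 and 2.66 normalized counts in VEC-null-labelled libraries and 73.5, 79.9 and 82.3 in VEC-positive-labelled ones (log2 fold change 4.16, SE 0.35, adjusted p = 7.28e-05, limma). *Nfatc4* had 21.4, 57.5 and 45.2 against 1.17, 0 and 0.807 (log2 fold change -4.64, SE 0.53, adjusted p = 3.18e-04, limma), a fitted change that depends on the pseudocount of 1. Among calcium pumps, *Atp2a3* of the endoplasmic reticulum had 21.4, 37.0 and 51.4 against 3.50, 4.87 and 3.23, and *Atp2b2* of the plasma membrane had 0, 1.58 and 0 against 18.7, 24.4 and 15.3. Each of these NFAT and pump genes passed the low-count filter only through the group where it was higher. None was tested when a library of that group was left out, since fewer than 3 libraries then reached 10 normalized counts.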
